A study of Mus musculus with 20 samples.

Results

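The data describe the RNA of 7 molecules that activated regulatory T (Treg) cells use to suppress other cells or to act in tissues, encoded by Il10, Ebi3, Gzmb, Fgl2, Areg, Klrg1 and Il1rl1. Probes of the members were taken by symbol, as every probe that the array annotation assigns to them, and this rule used no measured value. The members themselves were chosen with earlier results of these data known. They are 7 of the 27503 genes named on the arrays and carry 9 probes, 8 of which passed the filter on dim probes. Results rest on the brightest tested probe of each gene, and the other probes of Il1rl1 are described separately.

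Treg cells express the transcription factor Foxp3 and keep immune responses in check. On activation they become effector Treg cells, which lose features of resting cells, enter tissues and make mediators that act on neighbouring cells. Il10 encodes an anti-inflammatory cytokine, and Ebi3 a chain that forms heterodimeric cytokines with partner chains. Gzmb encodes a cytotoxic serine protease, Fgl2 a secreted ligand of the inhibitory Fc receptor Fcgr2b, and Areg amphiregulin, a growth factor that acts on Egfr and aids tissue repair. Klrg1 encodes an inhibitory receptor for cadherins found on highly differentiated T and NK cells, and Il1rl1 encodes ST2, the receptor for the alarmin interleukin 33. T follicular regulatory (TFR) cells are Foxp3+ cells of the B-cell follicle, where T follicular helper (TFH) cells support germinal centres.

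RNA came from CD4 T cells of B6.Cg-Foxp3<tm1Mal> mice, in which GFP reports Foxp3, of 8 to 14 weeks of age and of both sexes. Cells of 8 to 15 mice were pooled for each sort, so that 1 array stands for 1 pool. Peripheral lymph nodes (pLN) were taken 12 or 25 days (d12, d25) after subcutaneous immunisation with keyhole limpet haemocyanin in alum, while the labels name no immunisation for Peyer's patches (PP). Sorted from pLN were naive T cells (GFP- PD1lo GL7-), Treg cells (GFP+ PD1lo GL7-), TFH cells (GFP- PD1hi GL7+) and TFR cells (GFP+ PD1hi, irrespective of GL7, a surface epitope). From PP came Treg and TFR cells gated in the same way and both TFH GL7+ and TFH GL7- cells. The 4 pLN d12 groups and the 4 PP groups had 2 arrays each and the 4 pLN d25 groups 1 array each, with separate experiments behind the arrays of a group. All fractions were also gated as B220- and CD4+, B220 being a B-cell antigen. These markers defined the gates, so none of the 7 genes was used for sorting.

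The 20 arrays lay on 5 slides of 4, and each slide held the groups of 1 tissue and day. Slides 1 and 2 held replicates 1 and 2 of pLN d12, slide 3 pLN d25, and slides 4 and 5 replicates 1 and 2 of PP. Between 43.0% and 58.0% of probes were above background on an array. Foxp3 read 13409 to 35129 (normalised intensity) on the 10 Treg and TFR arrays and at most 192 on the 10 others, and Pdcd1 and Cxcr5 were higher in TFH and TFR than in Treg and naive cells of the same tissue. Transcripts of other cells were present. Over 12 B-cell genes the summed intensity was 4847 to 22649 on the pLN arrays and 6829 to 15985 on slide 5, but on slide 4 it was 45022 in TFH GL7+, 26104 in TFH GL7-, 121922 in Treg and 182351 in TFR cells. Of 8 epithelial genes 7 or 8 were above background on each slide 4 array, against 4 or 5 on slide 5 and 1 to 3 in pLN.

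Promoters of 5 of the 7 genes were in the RefSeq table used (assembly GRCm38.p6), Il1rl1 with 2 starts, and Il10 and Klrg1 were not among them. The 250 bases before each start were searched on both strands for the AP-1 motif TGANTCA and the GATA motif AGATAA, which do not overlap each other here. AP-1 and GATA factors are well known in effector T cells. Shown are the 4 windows that hold a match, written 5′ to 3′ on the gene's strand and ending at the base before the start, with the match in capitals.
Gzmb, chr14:56262335-56262584, minus strand: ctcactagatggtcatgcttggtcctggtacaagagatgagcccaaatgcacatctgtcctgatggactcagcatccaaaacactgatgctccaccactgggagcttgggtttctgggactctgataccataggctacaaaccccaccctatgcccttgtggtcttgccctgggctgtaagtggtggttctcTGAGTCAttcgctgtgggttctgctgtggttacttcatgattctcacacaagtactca
Fgl2, chr5:21372423-21372672, plus strand: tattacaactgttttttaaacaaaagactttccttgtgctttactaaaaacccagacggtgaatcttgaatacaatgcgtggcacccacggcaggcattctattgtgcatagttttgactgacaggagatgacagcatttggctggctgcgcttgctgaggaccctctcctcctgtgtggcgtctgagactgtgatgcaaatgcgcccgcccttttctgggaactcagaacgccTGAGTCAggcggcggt
Il1rl1, first start, chr1:40429320-40429569, plus strand: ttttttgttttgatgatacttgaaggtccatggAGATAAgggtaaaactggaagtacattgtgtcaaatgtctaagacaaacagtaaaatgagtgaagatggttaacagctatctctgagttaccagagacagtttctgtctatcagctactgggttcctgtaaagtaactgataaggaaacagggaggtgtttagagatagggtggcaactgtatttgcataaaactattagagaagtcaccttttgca
Il1rl1, second start, chr1:40439379-40439628, plus strand: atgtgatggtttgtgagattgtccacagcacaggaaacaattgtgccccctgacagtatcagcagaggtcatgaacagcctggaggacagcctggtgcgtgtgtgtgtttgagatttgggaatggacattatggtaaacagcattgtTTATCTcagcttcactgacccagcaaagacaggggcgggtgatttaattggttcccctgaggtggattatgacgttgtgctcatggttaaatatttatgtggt
Gzmb and Fgl2 both had TGAGTCA, Gzmb at 58 to 52 and Fgl2 at 16 to 10 bases before the start. Of all 32851 promoters listed, 6.75% had an AP-1 match in this window. Both starts of Il1rl1 had a GATA match, at 217 to 212 bases on the gene's strand at the first and at 103 to 98 bases on the other strand at the second, where 9.99% of all promoters had one. The windows of Ebi3 and Areg held neither motif. A match is a description of these letters and was not tested as a site.

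All 7 genes differed among the 12 groups by limma's F test (adjusted p 4.95e-06 for Gzmb to 0.00289 for Areg), where 17.3% of the 22264 tested probes did. The groups stood in a common order for most genes, with naive cells at the bottom, TFH cells low and Treg and TFR cells high, but each gene departed from it somewhere. In bulk RNA of sorted cells, fewer cells that express a gene and less RNA per cell cannot be told apart.

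**Figure D1:**
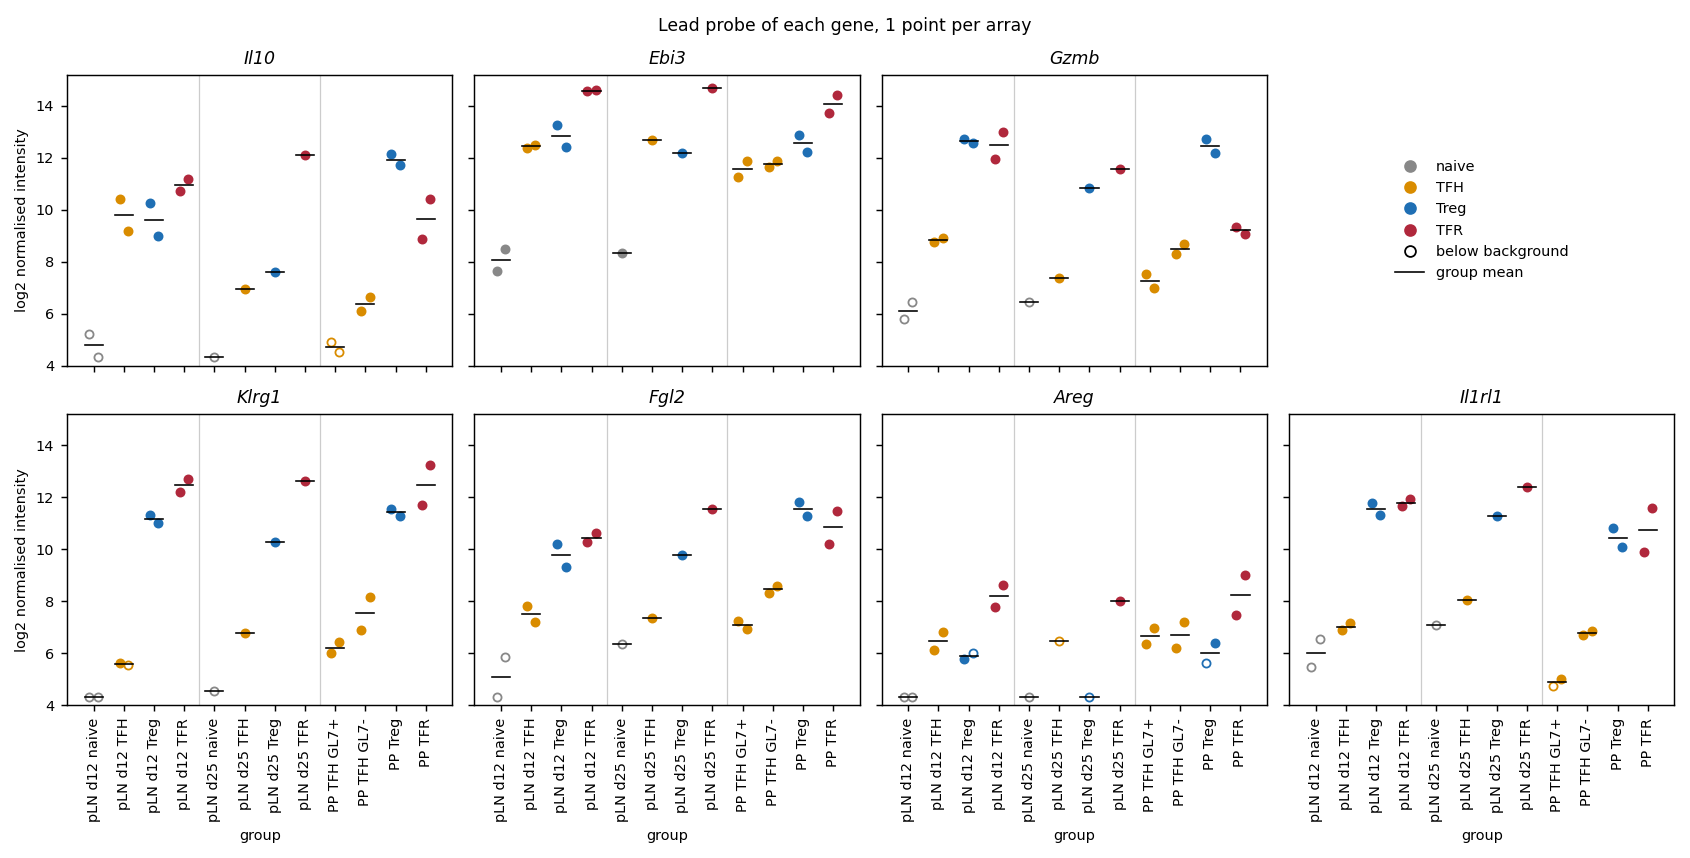
Log2 normalised intensity of the lead probe of each gene on each of the 20 arrays, by group, with open points for arrays where the probe was below background and a line at the group mean. Naive cells are lowest or among the lowest for every gene but Il1rl1. There pLN d25 naive cells, below background, stand above pLN d12 TFH and both PP TFH groups. TFR cells lead for Ebi3, Klrg1 and Areg, and PP TFR cells lie just above the TFH groups for Gzmb.

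Il10 (probe A_51_P430766, chromosome 1, 132920943 to 132921002, mm9, plus strand) was below background on all 3 naive arrays and on both PP TFH GL7+ arrays. In pLN d12 its normalised intensity was 1358 and 582 in TFH, 1212 and 503 in Treg and 1671 and 2305 in TFR cells. On d25 it was 125 in TFH, 194 in Treg and 4382 in TFR cells. In PP it was 68.1 and 101 in TFH GL7-, 4527 and 3338 in Treg and 463 and 1345 in TFR cells. The highest levels were thus those of pLN d25 TFR and PP Treg cells, next to each other in the order of groups (gap 0.17 on the log2 scale, unadjusted p 0.821). PP TFR cells stood level with pLN d12 Treg cells (gap 0.02), and the drop from there to pLN d25 Treg cells was the first beyond the spread (2.01, unadjusted p 0.0224). These unadjusted p-values come from limma over 77 neighbouring pairs of groups in all and describe the order alone.

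Ebi3 (probe A_51_P202633, chromosome 17, 56096309 to 56096368, mm9, plus strand) was above background on all 20 arrays. In pLN d12 it read 200 and 363 in naive cells, 5299 and 5800 in TFH, 9802 and 5438 in Treg and 24561 and 24593 in TFR cells. On d25 it read 318, 6523, 4693 and 26029 in the same order. In PP it read 2446 and 3783 in TFH GL7+, 3217 and 3799 in TFH GL7-, 7588 and 4755 in Treg and 13640 and 22091 in TFR cells. The 5 TFR arrays were the 5 highest of the series, and no other group overlapped them. The step from PP TFR down to pLN d12 Treg cells was beyond the spread (gap 1.25, unadjusted p 0.0102), while all groups from there to PP TFH GL7+ cells followed each other within it.

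Gzmb (probe A_51_P333274, chromosome 14, 56877916 to 56877975, mm9, minus strand) was below background in naive cells. In pLN d12 it read 434 and 482 in TFH, 6726 and 6135 in Treg and 3978 and 8170 in TFR cells. On d25 it read 167 in TFH, 1821 in Treg and 3017 in TFR cells. In PP it read 186 and 125 in TFH GL7+, 312 and 405 in TFH GL7-, 6765 and 4695 in Treg, but 646 and 536 in TFR cells. PP TFR cells were therefore the regulatory group nearest to the TFH groups, with pLN d12 TFH cells as their next neighbour (gap 0.36, unadjusted p 0.34) and pLN d25 Treg cells above them beyond the spread (gap 1.63, unadjusted p 0.00431).

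Fgl2 (probe A_52_P266132, chromosome 5, 20883482 to 20883541, mm9, plus strand) was below background in naive cells too. In pLN d12 it read 224 and 146 in TFH, 1172 and 643 in Treg and 1246 and 1564 in TFR cells. On d25 it read 165 in TFH, 891 in Treg and 2990 in TFR cells. In PP it read 150 and 121 in TFH GL7+, 322 and 381 in TFH GL7-, 3623 and 2471 in Treg and 1190 and 2878 in TFR cells. The 10 Treg and TFR arrays were all above the 7 TFH arrays. In the order of groups the break beyond the spread lay between pLN d12 Treg and PP TFH GL7- cells (gap 1.31, unadjusted p 0.0368), and the regulatory groups followed each other within it.

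Areg (probe A_52_P482897, chromosome 5, 91570090 to 91570149, mm9, plus strand) was detected on 13 of 20 arrays, at most at 513. In pLN d12 it read 70.2 and 113 in TFH, 55.5 and 64.8 in Treg (the second below background) and 218 and 394 in TFR cells. On d25 it was above background in TFR cells alone, at 255. In PP it read 82.2 and 125 in TFH GL7+, 72.7 and 148 in TFH GL7-, 49.4 (below background) and 85.1 in Treg and 175 and 513 in TFR cells. The 5 TFR arrays were again the 5 highest, while the Treg arrays, at most 85.1, lay in or under the range of the TFH arrays. Areg was below background on all 3 naive arrays.

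Klrg1 (probe A_55_P1988844, chromosome 6, 122220629 to 122220688, mm9, minus strand) was below background in naive cells and near it in pLN d12 TFH cells, at 48.8 and 47.4 with the second below background. In pLN d12 it read 2532 and 2071 in Treg and 4711 and 6739 in TFR cells. On d25 it read 110 in TFH, 1257 in Treg and 6271 in TFR cells. In PP it read 64.6 and 85.8 in TFH GL7+, 118 and 291 in TFH GL7-, 3028 and 2491 in Treg and 3362 and 9720 in TFR cells. Its TFR arrays exceeded its Treg arrays without overlap, and its Treg and TFH arrays lay far apart. The gap from pLN d25 Treg to PP TFH GL7- cells was 2.76 on the log2 scale (unadjusted p 0.00101).

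Il1rl1 (lead probe A_55_P2027737, chromosome 1, 40522187 to 40522246, mm9, plus strand) is annotated to transcript variant 1, which encodes the membrane form of ST2. Naive cells were below background. In pLN d12 the probe read 118 and 144 in TFH, 3508 and 2527 in Treg and 3233 and 3901 in TFR cells. On d25 it read 264 in TFH, 2502 in Treg and 5325.8 in TFR cells. In PP it read 26.5 (below background) and 32.5 in TFH GL7+, 103 and 115 in TFH GL7-, 1801 and 1090 in Treg and 953 and 3049 in TFR cells. Treg and TFR cells overlapped in both tissues and stood above every TFH array, with a gap of 2.41 between PP Treg and pLN d25 TFH cells (unadjusted p 0.00311).

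The other Il1rl1 probes were dim. A_55_P2027731 (40520014 to 40520073), also of variant 1, was above background on 5 arrays, which were both pLN d12 Treg arrays (100 and 103), both pLN d12 TFR arrays (113 and 105) and PP TFR replicate 2 (106). A_51_P339793 (40504769 to 40504828) is annotated to variant 2, the shorter transcript for the soluble receptor. It did not pass the filter, so it was not tested. It was above background on 3 arrays, 1 of each TFR group, at 50.8 in pLN d12 TFR replicate 1, 116 in pLN d25 TFR and 123 in PP TFR replicate 2. On no naive, TFH or Treg array was it detected.

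**Figure D2:**
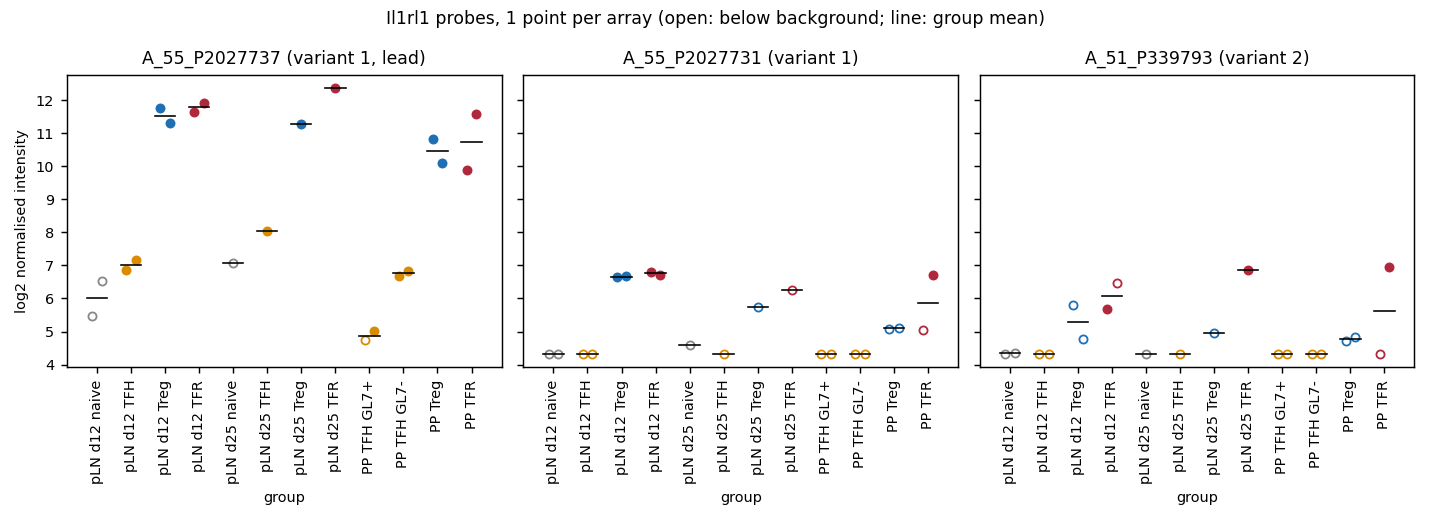
Log2 normalised intensity of the 3 Il1rl1 probes on each array, by group, with open points below background and a line at the group mean. The lead probe separates Treg and TFR from TFH and naive cells, while the variant 2 probe is above background on 3 TFR arrays.

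The first question was what Treg cells of immunised nodes carry over naive cells. In pLN d12, 6 of the 7 genes were higher in Treg cells and none was lower, where 2.86% of tested probes were called higher and 0.898% lower (called means a Benjamini-Hochberg adjusted p under 0.05 in limma and a log2 difference of at least 1). The member left out was Areg, at 1.58 on the log2 scale with naive cells below background (adjusted p 0.208). Ebi3 was 27.1-fold higher (log2 difference 4.76, SE 0.40, adjusted p 9.9e-05). For the other genes naive cells were below background, so that the fold is a bound, and it was at least 90.2-fold for Gzmb, 46.3-fold for Il1rl1, 37.2-fold for Klrg1, 14.1-fold for Fgl2 and 12.7-fold for Il10 (adjusted p 1.32e-05 to 0.00127). Within slide 1 and within slide 2 each of these 6 differences kept its sign.

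TFH cells also exceeded naive cells, in 5 of 7 genes, with 9.27% of probes called higher. Ebi3 was 20.6-fold higher (adjusted p 4.18e-05), Il10 at least 14.4-fold (0.000245), Gzmb at least 6.42-fold (0.00045), Fgl2 at least 2.94-fold (0.0104) and Areg at least 1.45-fold (0.0183). The calls of Fgl2 and Areg were each lost under 6 of 27 alternatives. Klrg1 (adjusted p 0.111) and Il1rl1 (0.221), the receptors, were not called. Klrg1 gained a call under 8 of 27 alternatives.

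TFR cells, sorted irrespective of GL7, were next set against TFH GL7+ cells of the same tissue. This comparison of regulatory with helper follicular cells thus also differs in the GL7 gate. In pLN d12, 5 of 7 genes were higher in TFR cells (2.81% of probes called higher). Klrg1 was 117-fold higher (log2 difference 6.87, SE 0.49, adjusted p 4.23e-05), with 1 of 2 TFH arrays below background. Il1rl1 was 27.3-fold higher (adjusted p 0.000407), Gzmb 12.5-fold (0.000276), Fgl2 7.72-fold (0.00986) and Ebi3 4.43-fold (0.00986). Il10 at 1.14 (95% interval -0.21 to 2.50, adjusted p 0.435) and Areg at 1.72 (0.51 to 2.93, adjusted p 0.113) on the log2 scale were not called. Both TFH arrays lay below both TFR arrays for Il10, by 0.30 on the log2 scale within slide 1 and 1.99 within slide 2.

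In PP, 6 of 7 genes were higher in TFR than in TFH GL7+ cells (2.34% of probes called higher). TFR cells were not tested against TFH GL7- cells. For Gzmb the mean log2 intensity was 9.20 in TFR, 8.47 in TFH GL7- and 7.25 in TFH GL7+ cells. Klrg1 was 76.8-fold higher (log2 difference 6.26, SE 0.49, adjusted p 8.82e-05) and Il1rl1 58.0-fold (0.00015, 1 of 2 TFH arrays below background). Il10 was at least 27.2-fold higher (0.00124), with both TFH arrays below background. Fgl2 was 13.7-fold higher (0.00308), Ebi3 5.71-fold (0.00516) and Gzmb 3.86-fold (0.0137), and Areg was not called (1.56, adjusted p 0.217). The Gzmb call was lost under 6 of 27 alternatives and the Ebi3 call under 5. PP Treg cells exceeded TFH GL7+ cells in 5 genes (4.62% called higher), in Il10 at least 134-fold, in Il1rl1 47.7-fold, in Gzmb and Klrg1 36.9-fold each and in Fgl2 22.2-fold (adjusted p 1.25e-05 to 0.000408). Neither Ebi3 (0.98, adjusted p 0.157) nor Areg (-0.65, adjusted p 0.584) was called there.

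The difference between Treg and TFR cells, called the step from Treg to TFR cells here, split the genes. It compares separately sorted fractions, and no passage of cells from one to the other was measured. In pLN d12 Ebi3 was 3.37-fold higher in TFR than in Treg cells (log2 difference 1.75, SE 0.40, adjusted p 0.0176) and Areg 4.89-fold (2.29, SE 0.54, adjusted p 0.0223, 1 of 2 Treg arrays below background). These were 2 of 7 genes, where 5.79% of probes were called higher, and none was lower (2.56% called lower). The remaining 5 log2 differences ran from -0.17 for Gzmb (95% interval -0.98 to 0.64) to 1.33 for Il10 (-0.02 to 2.68). The Ebi3 call was lost under 5 and the Areg call under 7 of 27 alternatives.

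In PP the same 2 genes were higher in TFR cells, Ebi3 2.89-fold (log2 difference 1.53, SE 0.40, adjusted p 0.0312) and Areg 4.63-fold (2.21, SE 0.54, adjusted p 0.025, 1 of 2 Treg arrays below background), where 6.23% of probes were called higher. Gzmb and Il10 were lower (3.02% called lower). Gzmb in PP TFR cells was 0.104 times its level in PP Treg cells (log2 difference -3.26, SE 0.36, adjusted p 0.000303), and Il10 0.203 times (-2.30, SE 0.61, adjusted p 0.0343). Within slide 4 the differences were -3.39 for Gzmb and -3.29 for Il10, and within slide 5 they were -3.13 and -1.31. The Gzmb call was lost under 1 of 27 alternatives, the Il10 call under 10, the Areg call under 9 and the Ebi3 call under 7. Fgl2 differed by -1.61 within slide 4 and 0.22 within slide 5, and Klrg1 by 0.15 and 1.96.

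**Figure D3:**
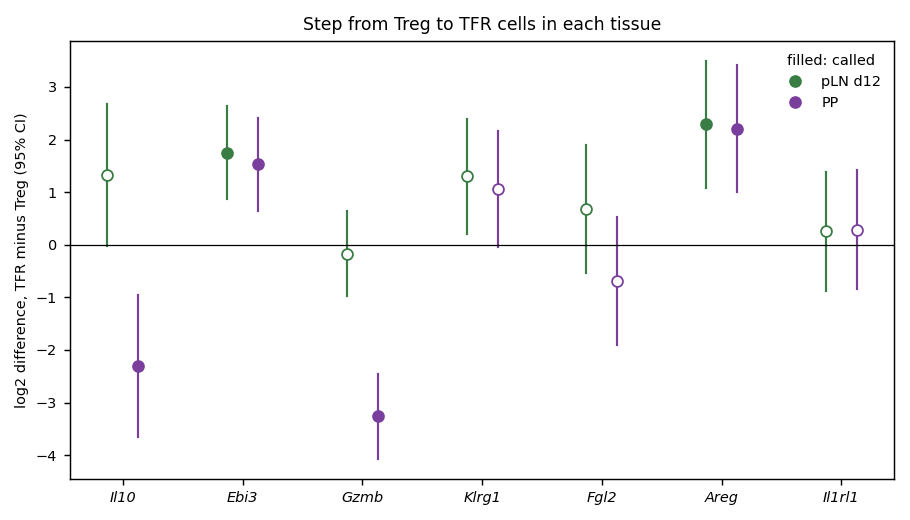
Log2 difference of TFR minus Treg cells for each gene in pLN d12 and PP, with the 95% confidence interval of the fit and filled points where the difference was called. Ebi3 and Areg are higher in both tissues, and Il10 and Gzmb are called lower in PP alone.

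The tissue difference of this step was tested directly. It was called for Gzmb, at -3.09 on the log2 scale (SE 0.51, adjusted p 0.0318), where 0.202% of probes were called in that direction. The call was lost under 14 of 26 alternatives, which left the difference between -3.61 and -2.57. For Il10 the difference was of like size and less certain, at -3.63 (SE 0.86, 95% interval -5.54 to -1.72), and did not pass the correction (adjusted p 0.127). With slide in the fit it was called, both as a fixed block and as a random block (adjusted p 0.0107 with the latter). Those of Ebi3, Klrg1, Areg and Il1rl1 were -0.22, -0.24, -0.08 and 0.03, each with an interval that reached beyond 1 on both sides, and that of Fgl2 was -1.38 (95% interval -3.09 to 0.33). For TFR minus TFH cells no member's tissue difference was called (0.611% of probes were called), with Il10 at 3.77 (adjusted p 0.115) and Gzmb at -1.69 (adjusted p 0.326). The Il10 value rests on PP TFH GL7+ arrays below background, so that its size is not exact. It too was called with slide as a fixed or as a random block (adjusted p 0.0118 with the latter).

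Levels of each cell type were then compared between PP and pLN d12. Tissue goes with slide here, and the labels name an immunisation for pLN alone. Tissue, slide and any difference in immunisation therefore cannot be told apart. In Treg cells no member was called (2.24% of probes were), although 2 were at an unadjusted p under 0.05, Il10 at 2.31 (adjusted p 0.0895) and Fgl2 at 1.78 (adjusted p 0.143), both higher in PP. In TFH GL7+ cells 3 genes were lower in PP and none higher (2.18% of probes called lower, 2.36% higher). Il10 was at least 30.7-fold lower (adjusted p 0.00201), with both PP arrays below background. Il1rl1 was 0.226 times its pLN level (log2 difference -2.15, SE 0.51, adjusted p 0.0379, 1 of 2 PP arrays below background) and Gzmb 0.334 times (-1.58, SE 0.36, adjusted p 0.0334). These calls were lost under 2 (Il10), 13 (Gzmb) and 19 (Il1rl1) of 26, 26 and 27 alternatives.

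In TFR cells Gzmb alone was called, at 0.103 times its pLN d12 level (log2 difference -3.28, SE 0.36, adjusted p 0.000529), where 5.39% of probes were called lower. This call was kept under all 26 alternatives, with values from -3.80 to -2.76. Klrg1 and Areg differed by 0.02 and 0.03 on the log2 scale, with intervals of -1.08 to 1.12 and -1.18 to 1.24. Il10 (-1.31, adjusted p 0.183) and Il1rl1 (-1.06, adjusted p 0.202) were not called.

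**Figure D4:**
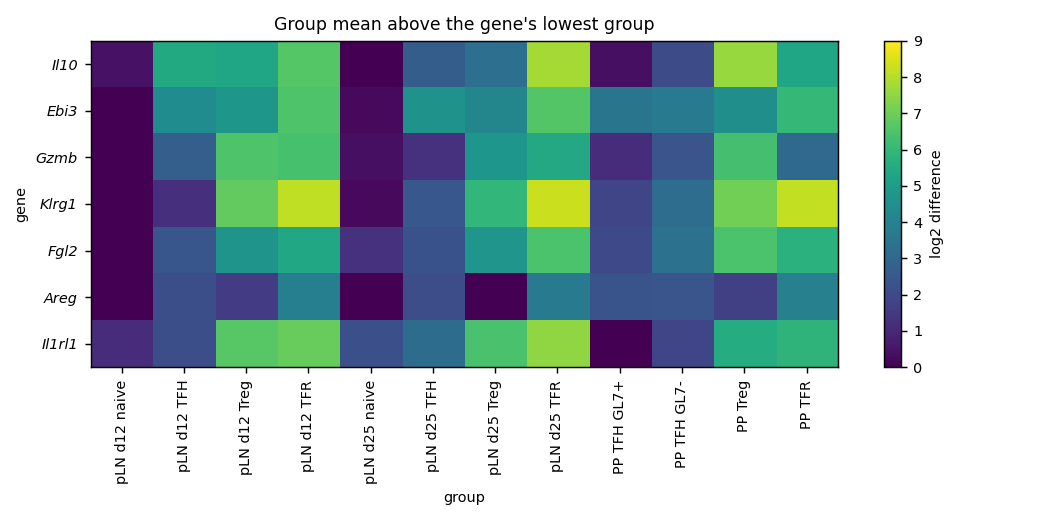
Mean log2 normalised intensity of each group for each gene, drawn as the difference from that gene's lowest group (colour scale in log2 units, 12 groups across). Klrg1 and Fgl2 run alike. Within its own row Areg is highest in the 3 TFR groups, and Gzmb is darker in PP TFR than in pLN TFR.

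PP TFH cells with and without GL7 were compared by limma and by the methods' t-test. No member was called by limma (0.00898% of probes were), and 5 were at an unadjusted p under 0.05, all lower in GL7+ cells. These were Il1rl1 (-1.89 on the log2 scale, 1 of 2 GL7+ arrays below background), Il10 (at least 2.86-fold, both below background), Fgl2 (-1.38), Klrg1 (-1.31) and Gzmb (-1.22), each with an adjusted p of 1. The methods' t-test had 3 members at an unadjusted p under 0.05 and 0 after adjustment. Of the 22264 tested probes, 556 were at an unadjusted p under 0.05 by that t-test and 1 after adjustment. For limma the share of all probes at an unadjusted p under 0.05 was not counted. On each slide the 5 genes were lower in the GL7+ array. Ebi3 and Areg differed by -0.20 and -0.03.

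Time after immunisation was compared in pLN, where day and slide cannot be told apart and the d25 groups have 1 array each. No member was called in naive (0.00898% of probes called), TFH (0.0314%), Treg (0%) or TFR cells (0.00898%). At an unadjusted p under 0.05 stood 0 members in naive, 2 in TFH, 3 in Treg and 0 in TFR cells. The share of all probes at that unadjusted threshold was not counted, so these counts cannot be set against the percentages of called probes. On d25 Il10 was lower than on d12 in TFH (-2.83 on the log2 scale, adjusted p 0.94) and Treg cells (-2.01, adjusted p 1) without passing the correction, and Gzmb likewise (-1.45 and -1.82, adjusted p 1 and 0.542). In TFR cells the differences ran from -0.92 for Gzmb to 1.16 for Il10.

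The PP arrays of slide 4 need a closer view, because they carried the B-cell and epithelial transcripts given above although the sort took B220- CD4+ cells. Between the PP TFR arrays, 6 of the 7 genes were lower on slide 4 than on slide 5, by 0.70 for Ebi3, 1.27 for Fgl2, 1.53 for Klrg1, 1.54 for Il10, 1.55 for Areg and 1.68 for Il1rl1 on the log2 scale. Gzmb was 0.27 higher there. Between the PP Treg arrays, 6 of 7 genes were higher on slide 4, by 0.28 for Klrg1 to 0.72 for Il1rl1, and Areg differed by -0.78. Transcripts of other cell types that can express these genes were also measured. Of 7 NK-cell and CD8 T-cell markers 6 were above background on all 8 PP arrays and Ncr1 on none, and the 7-gene sum in PP was 7113 and 4798 in TFR, 3822 and 3002 in Treg and 5661 to 7499 in TFH cells. In pLN the 7-gene sum was 3236 to 12165. Klrb1c, an NK-cell receptor, read 3644.3 to 5899.5 on the PP TFH and TFR arrays and 449.5 and 202.6 in PP Treg cells. Cd8a and Cd8b1 went the other way. Cd8a read 147.7 to 318.3 on the PP TFH and TFR arrays and 572.3 and 707.5 in PP Treg cells. Cd8b1 read 621.2 to 1113.8 and, in PP Treg cells, 1851.4 and 1405.9. For Klrd1, Eomes and Fcgr3 these ranges overlapped. Of 6 mast-cell and basophil genes, which bear on Il1rl1 and Areg, Gata2, Mcpt8, Ms4a2 and Fcer1a were below background on all 20 arrays. Cpa3 was above it on 3 arrays, none of them of PP, and Kit on 18 arrays, all 8 of PP among them (at most 1267). Of 4 plasma-cell genes 2 or 3 were above background on each PP array, with sums of 9008 to 55788 on slide 4 and 1578 to 10534 on slide 5. In pLN the sums were 584 to 56304. Most of the highest PP sum, on the TFR array of slide 4, was Jchain at 54296. Of 10 myeloid genes 6 or 7 were above background in PP, where Clec9a, Xcr1 and Cd14 were not. The part of other cells in the members' values was not tested.

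**Figure D5:**
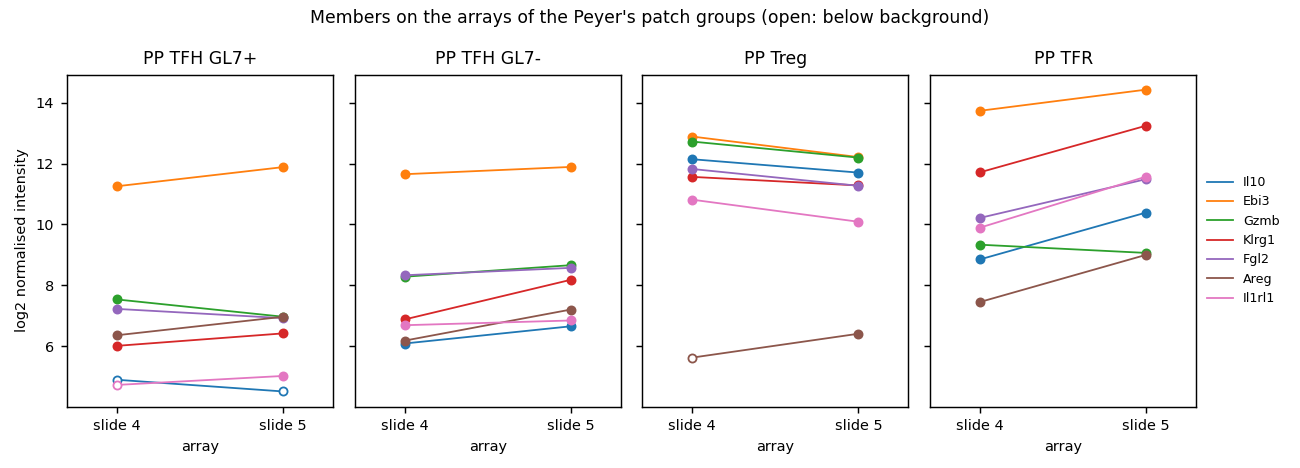
Log2 normalised intensity of the 7 genes on the arrays of slides 4 and 5 for the 4 PP groups, with a line joining the 2 arrays of a group and open points below background. In TFR cells all lines but that of Gzmb rise from slide 4 to slide 5, and in Treg cells all but that of Areg fall.

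Across the 12 group means the genes ran together to different degrees. Klrg1 and Fgl2 were the closest pair (Pearson r = 0.96) and Klrg1 and Il1rl1 the next (r = 0.92). Areg stood apart, with r between 0.37 and 0.60 with every gene but Ebi3 (r = 0.83). These groups share tissues, slides and normalisation, so the values are a description. Among 4001 genes whose group means span at least 2 on the log2 scale, the pattern most like Klrg1 was that of Itgae, the integrin chain CD103 (r = 0.986), followed by Tnfrsf18, the receptor GITR (r = 0.985), which also came first for Fgl2 (r = 0.963). Nearest to Gzmb were Ltb4r1, a leukotriene receptor (r = 0.959), and Il2ra, the high-affinity chain of the interleukin 2 receptor (r = 0.948). Nearest to Il10 was Serpina3i (r = 0.968), to Areg Hgfac (r = 0.978) and to Il1rl1 5730416F02Rik (r = 0.986), with Capg behind it (r = 0.978). For Ebi3 these were Gm3696 and 4930555G01Rik (r = 0.987 each) and Dusp4, a phosphatase of MAP kinases (r = 0.979).

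Genes that act with the members were listed by known function. Of 16 tested partners and receptors, such as Il10ra, Egfr, Fcgr2b and Il1rap, none was called between Treg and naive cells of pLN d12, where 3.76% of all probes were. The median log2 difference was -0.01, against -0.03 over all probes. Prf1, perforin, the pore protein that granzymes work with, was lower in TFR than in Treg cells in pLN d12 (-1.86, SE 0.36, adjusted p 0.00829) and PP (-1.99, SE 0.36, adjusted p 0.00517). It was the sole member of the list called in either, where 8.35% of all probes in pLN d12 and 9.25% in PP were called. Cdh1, a cadherin that Klrg1 binds, was called higher in PP than in pLN d12 in Treg and TFR cells, but it was above background on 4 arrays alone, all in PP, and is also an epithelial gene. Il12a, which can pair with Ebi3, and Il33, which Il1rl1 binds, did not pass the filter.

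Among 14 transcription factors of effector Treg cells, 7 were higher and none lower in Treg than naive cells of pLN d12 (median 1.08), where 2.86% of all tested probes were called higher. Ahr was higher by 3.70 on the log2 scale (adjusted p 0.000766) and Maf by 2.82 (adjusted p 0.00249). In TFR against Treg cells 4 were higher in pLN d12 (Batf 2.76-fold, Pparg 5.42-fold, Nfil3 3.37-fold and Ahr 2.85-fold). In PP 2 were higher (Batf 3.95-fold and Nfil3 3.45-fold), and none was lower in either tissue. The shares of all probes called higher were 5.79% in pLN d12 and 6.23% in PP. Between PP and pLN d12 TFR cells, Pparg was lower in PP by -2.06 (adjusted p 0.00261), Prdm1, the gene of Blimp-1, by -1.44 (adjusted p 0.0387), and Maf and Ikzf3 were higher. Of all probes 5.74% were called higher and 5.39% lower in that comparison.

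Of 15 other suppressive mediators, 9 were higher and 0 lower in Treg than naive cells of pLN d12 (median 1.82, 2.86% of all probes higher), led by Lrrc32 at 236-fold (adjusted p 5.4e-06). In PP, TFR cells were higher than Treg cells for 3 (Tigit, Lag3 and Itgb8) and lower for 3, which were Il2ra (0.129 times, adjusted p 0.00432), Entpd1, the ectonucleotidase CD39 (0.203 times, adjusted p 0.00895) and Gzmc, another granzyme (at least 9.39-fold lower, adjusted p 0.000324). In pLN d12 this step had 4 higher and 0 lower. Of all probes 6.23% were called higher and 3.02% lower at this step in PP, and 5.79% and 2.56% in pLN d12. Between PP and pLN d12 TFR cells, 5 were higher and 5 lower (5.74% and 5.39% of all probes), with Gzmc at least 20.7-fold lower (adjusted p 0.000142), as Gzmb was, and Gzma 8.25-fold higher (adjusted p 0.00382). The tissue difference of the Treg to TFR step was called for Itgb8 alone of this list (2.38, adjusted p 0.00953), which was below background in PP Treg and pLN d12 TFR cells.

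Of 18 surface genes of effector and tissue Treg cells, 11 were higher and 0 lower in Treg than naive cells of pLN d12 (median 2.77, 2.86% of all probes higher). Itgae was 36.1-fold higher (adjusted p 0.000118). In PP the list was evenly split at the step from Treg to TFR cells, with 4 higher and 4 lower (median 0.08, against 6.23% of all probes higher and 3.02% lower). Higher were, among others, Ccr8 (7.66-fold, adjusted p 0.0155) and the decoy receptor Il1r2 (41.4-fold, adjusted p 0.000306), and lower was, among others, the gut-homing receptor Ccr9 (0.201 times, adjusted p 0.00356). Between PP and pLN d12 TFR cells, 2 were higher and 5 lower (5.74% and 5.39% of all probes), and between Treg cells 1 was higher and 0 lower (2.24% of all probes called). Ccr9 was higher in PP in both, 25.3-fold in TFR (adjusted p 0.000132) and 9.82-fold in Treg cells (adjusted p 0.00206). Of 12 genes of resting Treg cells, 8 were lower and 0 higher in TFR than Treg cells of PP (median -2.07), where 3.02% of all probes were called lower and 6.23% higher. In pLN d12, 6 were lower and 1 higher (median -1.36), against 2.56% and 5.79% of all probes.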

How the data were processed

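Total RNA of sorted CD4 T cells was amplified, labelled with a single dye and hybridised to Agilent arrays (40 ng of RNA on slides 2, 3 and 5, 50 ng on slides 1 and 4, per the labels). The deposited scanner files (Agilent Feature Extraction 10.7.3.1, per the labels) hold background-corrected intensity for each printed feature, and the deposited series matrix of the authors holds quantile-normalised intensity on a linear scale. Probe positions are those of the array annotation (mm9), and symbols come from it.

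Values were rebuilt from the scanner intensity as the methods describe. The 4 features of each of 39429 probes were averaged as logarithms after leaving out marked outliers, then quantile normalised, scaled to a common 75th percentile, floored at 20 and taken to log2 (limma 3.58.1, R 4.3.3). For the members, the rebuilt values differed from the deposited ones by at most 0.228 on the log2 scale. A probe was above background on an array when at least 3 of 4 features were well above it, and the 22264 probes that were so on each array of some group with 2 arrays were tested. No probe was saturated. Signal over background sets what can be resolved: the lowest detected intensity per array was 20 to 144. The median background was 268 on pLN d12 TFR replicate 2 and 24 to 78 on the others.

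A linear model with 12 group means was fitted to all 20 arrays (8 residual degrees of freedom), with two-sided p-values adjusted by the Benjamini-Hochberg method over all tested probes of each of 17 comparisons. The spread of the single d25 arrays is taken to be that of the other groups. Where a group was below background on every array, the fold is a bound ("at least") against each array's lowest detected intensity or the probe's own, whichever is higher. The number of arrays limits the precision of each value.

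The lead probe of a gene is its tested probe with the highest mean, and genes of like pattern are the 3 with the highest Pearson r over the group means. The members, the lists of related and marker genes, the rules and the alternatives were chosen with earlier results of these data known. Replicate numbers follow the order of deposition. Slide is tied to tissue and day, and deviations of arrays on the same slide correlated (r 0.52 to 0.72 on slides 1 and 2, 0.66 to 0.87 on slides 4 and 5). Alternatives were other normalisations, background corrections, filters, floors, slide blocks, samples, probes and tests. Some results for the surface genes of the related lists are not reported here.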

Additional observations from a re-analysis of the deposited data

Results flagged for a closer look

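The Treg to TFR step of Gzmb differed between tissues by a test of the difference itself: the log2 difference of TFR minus Treg cells was -3.26 in PP and -0.17 in pLN d12, and the PP minus pLN d12 difference was -3.09 (SE 0.51, limma adjusted p 0.0318). PP TFR cells were lower than PP Treg cells on both slides, and in pLN d12 TFR cells were lower on slide 1 (-0.76) and higher on slide 2 (0.41). The call of the Gzmb tissue difference was lost under 14 of 26 alternatives. For Il10 the same difference was -3.63 (SE 0.86) and was not called (limma adjusted p 0.127). Prf1 was lower in TFR than in Treg cells in both tissues (-1.99 in PP and -1.86 in pLN d12), and Gzmc was below background on both PP TFR arrays. Gzma went the other way between tissues, being called higher in PP than in pLN d12 TFR cells.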

How the results depend on the processing

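Of 7 members over 4 comparisons each, 18 were called within pLN d12 (14 to 19 when each array of a group of 2 was left out in turn) and 15 within PP (11 to 15). The count between PP and pLN d12 was 4 (2 to 5), that for the tissue difference of the steps 1 (0 to 1), that for d25 against d12 0 under every alternative run (4 comparisons, limma), and that of the F test 7 (6 to 7). With only the compared groups in the fit, the counts were 5 within pLN d12, 5 within PP, 1 between tissues and 0 for the steps. Without slide 4 they were 1 between tissues, 0 for the steps and 4 for the F test, and without slide 5 they were 8 within PP, 2 between tissues, 0 for the steps and 4 for the F test. Either choice leaves 1 array per PP group. The count between tissues was 2 with normexp background, 2 with no filter, 2 with slide as a random block (correlation 0.742) and 2 by Tukey's test. For the steps it was 0 with a plain 75th percentile shift and 0 with no filter. A replicate block with slide as a fixed term gave 3 calls for the steps and slide as a random block 4. The fixed term, which pairs arrays by slide, moved no other count it could give by over 1.5 times. The cause of these changes was not tested. The step difference of Gzmb kept its sign under all 26 alternatives and its call under 12. Of 81 uncalled member comparisons, 28 changed sign and 10 gained a call under some alternative.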

Other observations

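The probe of the soluble Il1rl1 transcript (variant 2) was above background on 3 of 20 arrays, all of TFR cells (1 of 2 in pLN d12, 1 of 1 in pLN d25 and 1 of 2 in PP), at intensities of 50.8, 116 and 123. The pLN d12 TFR replicate 2 array, where it read 88.0 without passing the detection rule, had the highest median background of the series (268). No test was made, since the probe did not pass the filter.

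The gap between the PP TFR arrays exceeded 1 on the log2 scale for Il10, Klrg1, Fgl2, Areg and Il1rl1, each lower on slide 4, which also held a B-cell gene sum of 182351 against 13596 on slide 5. Klrg1, read as 3362 and 9720, was above both PP Treg arrays on either slide, though its TFR minus Treg difference was not called.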
